A study of Mus musculus with 6 samples.

Results

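The genes described here encode the proteins of the cytosolic ribosome. They were taken by symbol, as every gene row whose name is Rpl, Rps or Rplp followed by a number and at most 1 letter. Of 23329 gene rows, 80 met this rule, 49 for the large (60S) subunit and 31 for the small (40S) subunit. The rule used no measured value. Of the 80 genes, 76 passed a filter on low counts and were tested, 45 of the large subunit and all 31 of the small subunit. Rpl26, Rpl10l, Rpl39l and Rpl3l did not pass. Symbols of ribosomal proteins that the rule does not take, such as Fau and Gnb2l1, are described apart.

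Ribosomal proteins are made in nearly equal numbers, since each ribosome carries a single copy of most of them, and their mRNAs are among the most abundant of growing cells. Most of these mRNAs begin with a cytosine followed by a run of pyrimidines, the 5′ terminal oligopyrimidine (TOP) motif, through which mTORC1 and the RNA-binding protein LARP1 control how strongly they are translated. The genes are also known for their many processed pseudogenes, copies of the spliced mRNA scattered over the genome. In the gut, the mesenchyme is the connective tissue and muscle-lineage layer that surrounds the epithelium.

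RNA was sequenced from primary cultures of small intestinal mesenchymal cells of C57 mice, 3 of them grown from embryos of embryonic day 14.5 (called E14.5) and the other 3 from adult animals of unstated age. Embryonic gut was cut into pieces and adult gut was scraped free of villi. All 6 cultures then shared removal of the epithelium by chelation, digestion with collagenase and dispase, and growth in serum medium that held the kinase inhibitor Y27632, with RNA taken at passage 2 to 3. No transgene, knockout or cell sort was named, nor whether each culture had its own animal or litter, so p-values measure only the spread between these cultures. All 6 deposited tables are named with the letters PBS, with no explanation in the labels.

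Gene counts per library ranged from 30430596 to 32672370 in E14.5 cultures and from 18850224 to 29903594 in adult cultures. Mesenchymal markers were abundant in all libraries, with a summed level of 26824 to 39220 CPM (counts put on a common library size) in E14.5 cultures and 23591 to 35676 CPM in adult cultures. Of these 10 mesenchymal genes, 4 were lower in every E14.5 library than in any adult library, and 1 of them was called lower in E14.5 by edgeR and 4 by DESeq2. Of 6 pericyte genes, 3 were higher and 1 lower in every E14.5 library than in any adult library, with 0 called by edgeR, 3 called higher and 1 lower by DESeq2, and a summed level of 495 to 985 CPM in E14.5 cultures and 750 to 831 CPM in adult cultures. The sum of the epithelial markers stayed low, at 0.469 to 1.02 CPM in E14.5 cultures and 0.351 to 0.993 CPM in adult cultures, and Fabp2, an enterocyte gene, was at 0 in all 6. Other cell types differed between libraries. For 12 macrophage and leukocyte genes, E14.5 replicates 1, 2 and 3 had a summed level of 205, 415 and 2442 CPM, against 187, 23.7 and 49.0 CPM in adult replicates 1, 2 and 3, and 11 of the 12 genes were higher in every E14.5 library than in any adult library. The summed level of 11 endothelial genes was 38.9, 17.3 and 14.3 CPM in E14.5, against 30.3, 2047 and 459 CPM in adult cultures. Of these, 7 were lower in every E14.5 library than in any adult library, and DESeq2 called 7 lower. Over all tested genes, 12.1% were higher and 12% lower in every E14.5 library than in any adult library. There, edgeR called 0.245% higher and 0.838% lower, and DESeq2 5.14% and 5.47%. Apart from the epithelial list, none of these marker genes was at 0 in all libraries, and the part of these cells in the results was not tested.

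To show the TOP motif of this family, the sequence around the transcription start was read from RefSeq promoters of GRCm38.p6, the same assembly as mm10, for the 60 members with an entry. Each line below gives 40 bases before the annotated start and the first 20 transcribed bases, with the longest pyrimidine run near the start in capitals. Rplp2, Rpl14 and Rpl38 are shown as large-subunit genes with a clear run, and Rps26, Rps6 and Rps15a as their small-subunit counterparts. Rpl10, which lacks a run, and Rps27l are shown because they were among the genes that differed least between the groups.
Rplp2, chr7:141447611-141447670, plus strand: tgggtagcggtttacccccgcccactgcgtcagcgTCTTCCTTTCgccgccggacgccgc
Rpl14, chr9:120571477-120571536, plus strand: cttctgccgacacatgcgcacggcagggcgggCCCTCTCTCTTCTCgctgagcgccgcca
Rpl38, chr11:114668540-114668599, plus strand: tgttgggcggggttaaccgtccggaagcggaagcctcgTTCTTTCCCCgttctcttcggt
Rpl10, chrX:74270776-74270835, plus strand: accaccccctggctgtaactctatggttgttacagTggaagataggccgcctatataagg
Rps26, chr10:128626487-128626546, minus strand: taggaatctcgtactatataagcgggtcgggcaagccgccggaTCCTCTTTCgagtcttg
Rps6, chr4:86857348-86857407, minus strand: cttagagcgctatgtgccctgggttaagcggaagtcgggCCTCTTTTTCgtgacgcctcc
Rps15a, chr7:118116128-118116187, minus strand: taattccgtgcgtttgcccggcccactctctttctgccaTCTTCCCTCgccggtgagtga
Rps27l, chr9:66946046-66946105, plus strand: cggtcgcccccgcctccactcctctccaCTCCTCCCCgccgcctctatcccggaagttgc

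A pyrimidine run of at least 8 bases reached to within 5 bases of the annotated start in 20 of 60 members (33.3%). The share was 9.67% of 32534 promoter windows of all genes. A cytosine followed by at least 4 pyrimidines began at the start base itself in 12 members (20%), against 2.51% of all windows. The annotated starts are single positions, whereas transcription begins over several bases. In the window from 250 bases before to 50 bases after the start, read on both strands, the ETS-type motif CTTCCG was in 40 members (66.7%), against 17.0% of all windows. The YY1-type motif AAGATGGC was in 4 members (6.67%), against 2.76%, and TATAAA was in 5 (8.33%), against 13.6%. A match is a string of letters and not a bound site.

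Ribosomal protein mRNA made up a larger part of the E14.5 libraries than of the adult libraries. The 80 genes took 2.93%, 2.57% and 3.27% of all gene counts in E14.5 replicates 1, 2 and 3, against 2.09%, 2.45% and 2.26% in adult replicates 1, 2 and 3. The lowest E14.5 library stood above the highest adult library, by a small margin.

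Both subunits showed this. The summed level of the large-subunit genes was 17895, 15392 and 18488 CPM in E14.5, against 13446, 13837 and 14312 CPM in adult cultures, and averaged 17258 ± 1643 CPM in E14.5 cultures and 13865 ± 434 CPM in adult cultures (SD, n = 3 each). The summed level of the small-subunit genes was 11981, 10224 and 12250 CPM in E14.5, against 8777, 9110 and 9389 CPM in adult cultures, and averaged 11485 ± 1100 CPM in E14.5 cultures and 9092 ± 307 CPM in adult cultures. For both subunits, all 3 E14.5 libraries were above all 3 adult libraries. The ratio of E14.5 to adult summed levels was 1.24 for the large and 1.26 for the small subunit. Leaving out each library in turn kept it between 1.20 and 1.31 for the large and between 1.22 and 1.33 for the small subunit. In RNA from whole cultures, a different share of cells of a type and a different amount of RNA per cell cannot be told apart.

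**Figure D1:**
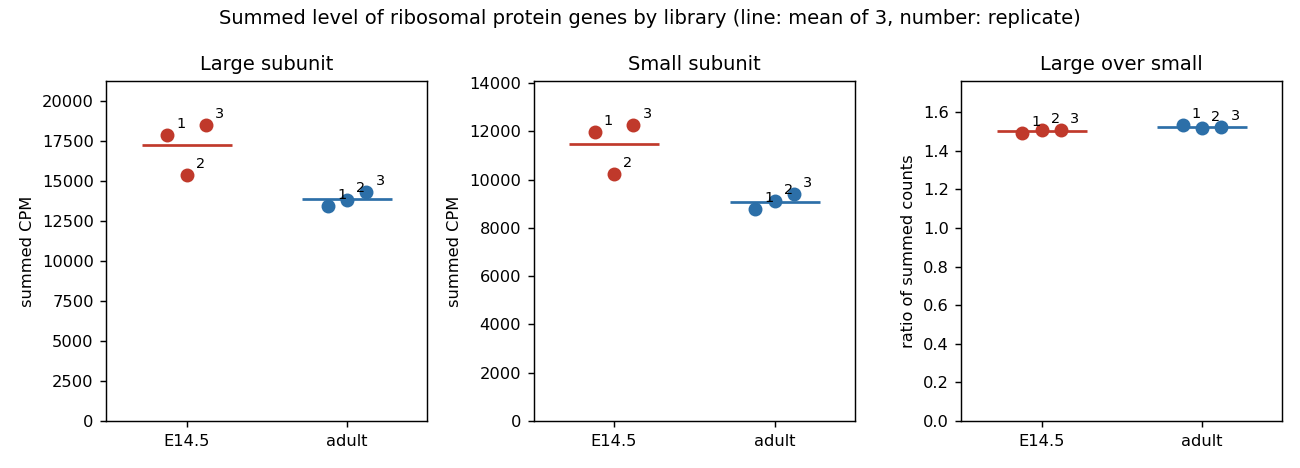
Summed level of the large-subunit and small-subunit genes (CPM) and the ratio of the large to the small sum. Each library is 1 point with its replicate number, E14.5 left of adult. The lines are means of 3 libraries, and E14.5 replicate 2 lies nearest to the adult libraries for both subunits.

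The balance between the subunits differed little. The summed level of the large-subunit genes divided by that of the small-subunit genes was 1.494, 1.505 and 1.509 in E14.5, against 1.532, 1.519 and 1.524 in adult cultures. All 3 E14.5 ratios were below all 3 adult ratios, with means of 1.503 ± 0.0081 in E14.5 cultures and 1.525 ± 0.0065 in adult cultures (SD, n = 3 each).

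No single ribosomal protein gene passed the test across all genes. At an adjusted p of 0.05 in edgeR's quasi-likelihood test, 0 of 45 large-subunit and 0 of 31 small-subunit genes were called higher in E14.5, where the share over all 13478 tested genes was 0.245%, and 0 were called lower, where it was 0.838%. In both directions together the share over all genes was 1.08%. The adjusted p ranged from 0.107 for Rpl29 to 0.995 for Rpl30. At an unadjusted p of 0.05, 26 large-subunit and 19 small-subunit genes were higher, 45 of 76 in all, against 8.64% of all tested genes, and 0 were lower, against 9.26%. That count of 45 moved when any library was left out. Omitting E14.5 replicate 1, 2 or 3 gave 13, 64 and 19 members in that order, and omitting adult replicate 1, 2 or 3 gave 12, 20 and 15. With DESeq2, 15 large-subunit and 7 small-subunit genes were called higher at an adjusted p of 0.05, against 5.14% of all genes tested there, and 0 were called lower, against 5.47%. With limma-voom, 0 members were called in either direction, against 0.178% of all genes higher and 0.749% lower.

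The fold changes were small and alike. The log2 fold change of E14.5 over adult was positive for 75 of 76 tested members, against 51.5% of all tested genes, and Rpl30, with few counts, was the exception. The median was 0.31 for the large subunit, a level 24.2% higher in E14.5, and 0.32 for the small subunit, 25.1% higher, against a median of 0.01 over all tested genes. Of the 76 members, 60 lay within 0.1 of the members' median of 0.32 on the log2 scale. The SD of the log2 fold change among members was 0.087, against 1.09 over all tested genes, and the median standard error (SE) of a member was 0.125. That SE includes differences between libraries that the members share, so it cannot show whether members differ from each other.

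**Figure D2:**
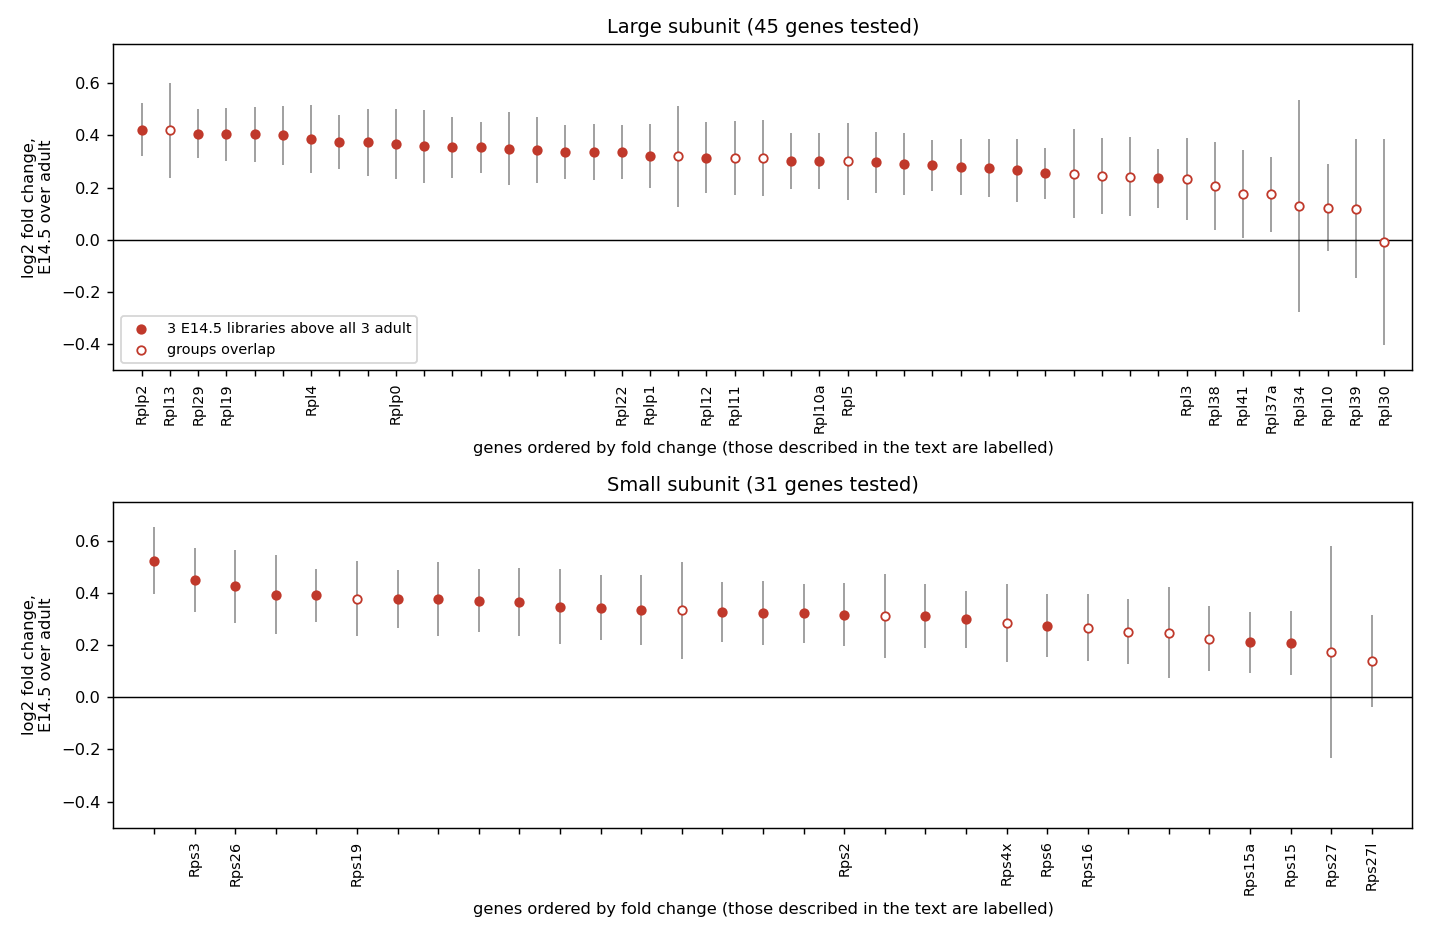
Log2 fold change of E14.5 over adult for each tested gene of the large and the small subunit, ordered by size, with bars of 1 SE from edgeR and labels for the genes described in the text. Filled points mark the 50 genes whose 3 E14.5 libraries all lie above the 3 adult libraries, open points the 26 whose groups overlap, and only Rpl30 lies below 0.

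For 50 of the 76 tested members, 29 of the large and 21 of the small subunit, all 3 E14.5 libraries lay above all 3 adult libraries. That order held for 12.1% of all tested genes. No member showed the opposite order, which 12% of all genes did. Among 1987 other genes with at least 100 CPM, 11.2% had all E14.5 libraries above all adult libraries and 49.6% had a positive fold change. Of those genes, 6.84% were higher in E14.5 at an unadjusted p of 0.05.

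The embryonic cultures were not alike in these genes. Of 73 members with a mean of at least 100 counts, all 73 were above the highest adult library in E14.5 replicate 1, 70 were in replicate 3 and 53 were in replicate 2. E14.5 replicate 2 had the lowest embryonic level for 68 of the 73 genes. The highest level of all 6 libraries was in E14.5 replicate 3 for 51 genes and in replicate 1 for 22. The median coefficient of variation of these genes was 10.3% among E14.5 libraries and 4.97% among adult libraries, against 15.8% and 9.40% for the 1987 other genes of at least 100 CPM.

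E14.5 replicate 2 also had the highest mesothelial sum and the lowest S phase and mitosis sum of the embryonic cultures. Its mesothelial markers, 8 genes, summed to 858 CPM, against 189 and 169 CPM in the other E14.5 cultures, and the adult cultures had 1540, 567 and 774 CPM. Its S phase and mitosis genes, 18 genes of proliferating cells, summed to 170 CPM, against 297 and 643 CPM in the other E14.5 cultures, and the adult cultures had 231, 611 and 335 CPM. None of these genes was at 0 in all libraries, and their part in the ribosomal protein levels was not tested. Unmapped reads took 1.16%, 2.49% and 1.10% in E14.5, against 1.51%, 1.26% and 1.11% in adult cultures.

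The titles fall under 3 prefixes of unstated meaning, and each prefix is found on an E14.5 and an adult library. Within the pairs that share a prefix, the median log2 difference of E14.5 minus adult was 0.41, 0.14 and 0.36 for the large-subunit genes. For the small-subunit genes it was 0.44, 0.14 and 0.40. The direction was the same in each pair, and the smallest difference was in the pair of E14.5 replicate 2.

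Without both libraries of that pair, the members' median log2 fold change was 0.39, with 0 members called by edgeR. E14.5 replicate 3 had the highest leukocyte sum and adult replicate 2 the highest endothelial sum. Without those 2 libraries the median was 0.27, with 0 members called. All remaining E14.5 libraries then lay above all remaining adult libraries for 54 of 76 members, against 23.9% of the 13478 genes of the full comparison. Both fits were chosen after the data were seen.

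**Figure D3:**
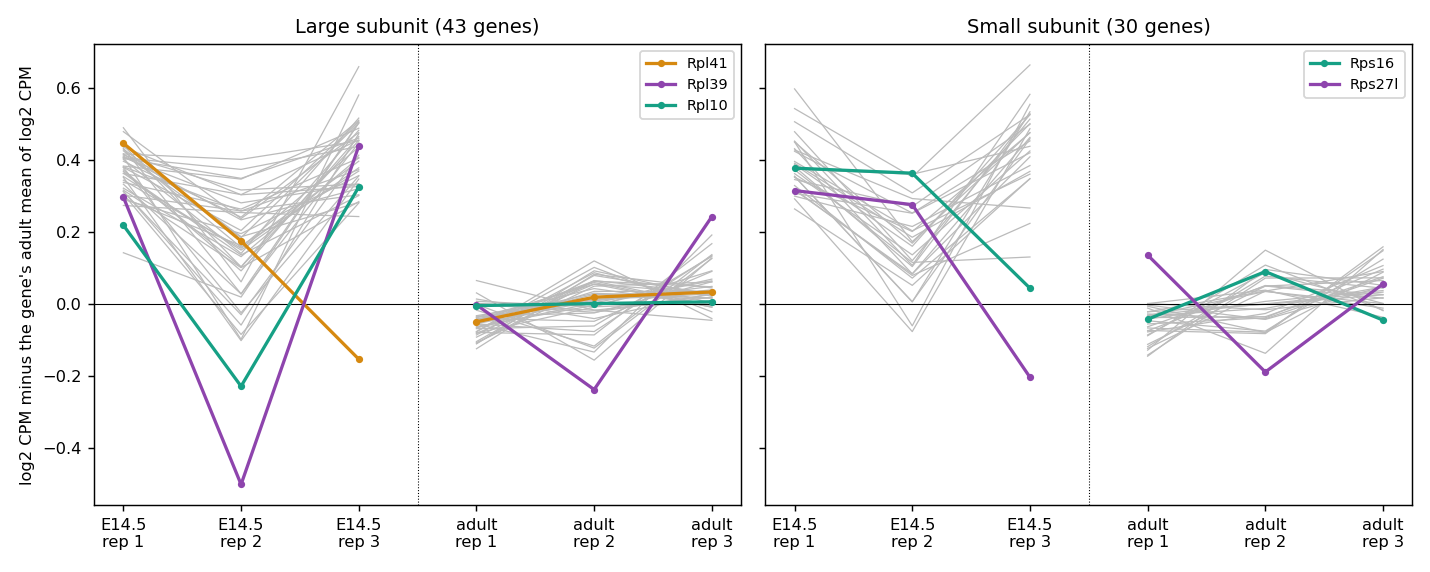
Level of each gene in each library, as log2 CPM minus that gene's mean log2 CPM over the adult libraries, for genes with a mean of at least 100 counts, large subunit left and small subunit right. Grey lines are single genes and coloured lines the named ones. The grey lines dip together in E14.5 replicate 2, where Rpl39, Rpl10 and some grey lines fall below 0. Rps27l is low in E14.5 replicate 3.

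The P stalk, which recruits elongation factors to the large subunit, is built from Rplp0, Rplp1 and Rplp2 on the base protein Rpl12. All 4 genes were higher in every E14.5 library than in any adult library, against 12.1% of all tested genes. Their median log2 fold change was 0.34. For these genes, edgeR called 0, and DESeq2 called 3 higher, against 5.14% of all genes tested there. Rplp0, the scaffold of the stalk, on chromosome 5 of mm10 from 115559467 to 115563727, had 1117, 989 and 1220 CPM in E14.5, against 822, 856 and 901 CPM in adult cultures. This is a log2 fold change of 0.37, with an SE of 0.14 and an adjusted p of 0.232 in edgeR and 0.037 in DESeq2. Rplp2, an acidic stalk protein, had 311, 308 and 319 CPM in E14.5, against 219, 244 and 238 CPM in adult cultures, so the 3 embryonic cultures were nearly equal and clear of the adults. Its log2 fold change of 0.42 (SE 0.10, adjusted p = 0.117 in edgeR and 4.19e-04 in DESeq2) was the highest of the large subunit. Rplp1, the other acidic protein, averaged 1085 ± 66.6 CPM in E14.5 cultures and 868 ± 38.8 CPM in adult cultures (SD, n = 3 each).

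Rpl5 and Rpl11 bind 5S rRNA in a particle that also restrains Mdm2 when ribosome assembly fails. Rpl5 had 324, 262 and 364 CPM in E14.5, against 249, 262 and 260 CPM in adult cultures. Rpl11 had 378, 311 and 403 CPM in E14.5, against 281, 277 and 320 CPM in adult cultures. The groups overlapped for both genes, through E14.5 replicate 2. The log2 fold change was 0.30 for Rpl5 (SE 0.15, adjusted p = 0.356) and 0.31 for Rpl11 (SE 0.14, adjusted p = 0.316) in edgeR.

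Of 11 genes listed for the tunnel of the nascent chain and its rim, 10 were tested. The list includes Rpl24, whose eukaryotic protein sits at the subunit interface. The log2 fold change was positive for all 10, its median 0.30. None was called by edgeR and 3 were called higher by DESeq2, against 5.14% of all genes tested there. Rpl4, which reaches into the tunnel wall, had the highest mean count of all members, with 1271, 1141 and 1375 CPM in E14.5, against 940, 974 and 984 CPM in adult cultures. The groups did not overlap, for a log2 fold change of 0.39 with an SE of 0.13. The adjusted p was 0.198 in edgeR and 0.0098 in DESeq2. Rpl19 had 479, 468 and 489 CPM in E14.5, against 361, 356 and 368 CPM in adult cultures, a gap far wider than the spread within either group. Its adjusted p was 0.122 in edgeR and 9.67e-06 in DESeq2. Rpl22 averaged 329 ± 16.1 CPM in E14.5 cultures and 260 ± 9.38 CPM in adult cultures (SD, n = 3 each), without overlap.

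Rpl39, a small protein of the tunnel, was the large-subunit gene of at least 100 counts that differed least. It had 260, 150 and 287 CPM in E14.5, against 211, 180 and 250 CPM in adult cultures, with E14.5 replicate 2 below all adult libraries. In edgeR the log2 fold change came to 0.12 (SE 0.27, adjusted p = 0.883), so its error was larger than its difference, and it was -0.06 without E14.5 replicate 3. The gene lies on the X chromosome from 37082520 to 37085402.

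Rpl10, which completes the 60S subunit late in its assembly, also lies on the X chromosome, from 74270812 to 74273135. It had 474, 348 and 510 CPM in E14.5, against 406, 407 and 409 CPM in adult cultures. The adult cultures were almost identical and E14.5 replicate 2 was below them. In edgeR the log2 fold change came to 0.12 (SE 0.17, adjusted p = 0.779). Of the 75-base windows of its transcript, 91.86% also occur in transcripts of other genes. E14.5 replicate 2 was below all adult libraries for 3 of the 73 genes, Rpl39, Rpl10 and Rpl37a, the last named after its values were seen.

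Other large-subunit genes of fixed role lay between these. Rpl3, beside the peptidyl transferase centre, averaged 478 ± 85.9 CPM in E14.5 cultures and 406 ± 20.2 CPM in adult cultures (SD, n = 3 each), with overlap. Rpl10a, of the L1 stalk, averaged 107 ± 9.21 CPM in E14.5 cultures and 86.7 ± 2.8 CPM in adult cultures, without overlap. Rpl38, known in mouse for its part in the translation of Hox mRNAs, had 248, 181 and 247 CPM in E14.5, against 187, 177 and 222 CPM in adult cultures, with overlap and a log2 fold change of 0.21 (SE 0.17, adjusted p = 0.610, edgeR). Rpl13 had 318, 237 and 358 CPM in E14.5, against 215, 214 and 255 CPM in adult cultures. Its log2 fold change of 0.42 was close to that of Rplp2, but its groups overlapped and its SE was 0.18.

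Rpl29 had the lowest adjusted p of all members in edgeR. Its levels were 122, 119 and 131 CPM in E14.5, against 93.6, 92.3 and 94.7 CPM in adult cultures. The difference of 0.41 on the log2 scale had an SE of 0.09 (adjusted p = 0.107 in edgeR and 4.56e-04 in DESeq2). Of its 75-base windows, 56.76% also occur in transcripts of other genes, among them 42 pseudogenes. Reads that fit several places equally well are not in the gene rows, so the level of such a gene can be understated.

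In the small subunit, Rps3, a protein of the mRNA entry channel, had 931, 812 and 943 CPM in E14.5, against 656, 648 and 663 CPM in adult cultures, with narrow spread among adults and no overlap. A log2 fold change of 0.45 (SE 0.12, adjusted p = 0.138 in edgeR and 7.31e-04 in DESeq2) is a 1.37-fold higher level. Rps3 lies on chromosome 7 from 99477896 to 99483738, and none of its 75-base windows occurs in another gene's transcript. Rps26, at the mRNA exit, averaged 439 ± 64.3 CPM in E14.5 cultures and 327 ± 10.4 CPM in adult cultures (SD, n = 3 each), without overlap.

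Of 14 genes of the head and decoding site, the log2 fold change was positive for all 14, its median 0.33. None was called by edgeR, and 3 were called higher by DESeq2, against 5.14% of all genes tested there. All E14.5 libraries lay above all adult libraries for 9, against 12.1% of all tested genes. Rps2, near the entry of the mRNA, had 733, 636 and 722 CPM in E14.5, against 535, 579 and 566 CPM in adult cultures, without overlap. Rps15 had a smaller log2 fold change of 0.21 (SE 0.12, adjusted p = 0.461, edgeR), and its groups also did not overlap. Rps16 had 165, 163 and 131 CPM in E14.5, against 123, 135 and 123 CPM in adult cultures. Its low embryonic library was replicate 3, not replicate 2.

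Rps6, the substrate of S6 kinase downstream of mTORC1, had 259, 220 and 276 CPM in E14.5, against 203, 213 and 208 CPM in adult cultures. The groups did not overlap, and edgeR gave a log2 fold change of 0.27 (SE 0.12, adjusted p = 0.306). Rps19, the gene most often mutated in human Diamond-Blackfan anaemia, averaged 293 ± 42.2 CPM in E14.5 cultures and 226 ± 17.2 CPM in adult cultures (SD, n = 3 each), with overlap through E14.5 replicate 2. Of 18 ribosomal protein genes linked to that human disorder, 17 were tested, and the log2 fold change was positive for all 17 (median 0.31). Of these, 0 were called by edgeR and 2 were called higher by DESeq2, against 5.14% of all genes tested there. Rps4x, on the X chromosome, had 518, 407 and 557 CPM in E14.5, against 385, 420 and 412 CPM in adult cultures, again with E14.5 replicate 2 among the adults.

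Rps27l, a paralog of Rps27 known as a p53 target, followed another order over the libraries. It had 263, 255 and 183 CPM in E14.5, against 232, 185 and 219 CPM in adult cultures, so E14.5 replicate 3 was the lowest of all 6 and the groups overlapped. In edgeR it had a log2 fold change of 0.14 (SE 0.18, adjusted p = 0.763), and -0.02 without both libraries of the prefix of E14.5 replicate 2. Within the prefix pairs the log2 difference was 0.18, 0.46 and -0.26, with the sign turned in the pair of E14.5 replicate 3. After the common level of each library was taken out, the SD of Rps27l over the 6 libraries was 0.31 on the log2 scale, the largest among members of at least 100 counts, ahead of Rpl39 with 0.29. Rpl41, named after its values were seen, followed with 0.27, and had 354, 293 and 234 CPM in E14.5, against 251, 263 and 266 CPM in adult cultures.

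Levels between genes were compared per length, as CPM per kilobase of the annotated principal transcript (GENCODE M21). The median over 73 members was 455 CPM per kilobase in E14.5 cultures and 353 in adult cultures. Rplp1 had the highest mean level, with 2174 CPM per kilobase in E14.5 cultures and 1740 in adult cultures, and Rps15a the lowest, with 57.9 in E14.5 cultures and 50.1 in adult cultures. The principal transcript of Rps15a is annotated at 5130 bases, which lowers its level per kilobase. Rpl4 and Rplp0 were neighbours in the order of E14.5 levels, with means of 821 and 816 CPM per kilobase, and did not differ beyond the spread between the E14.5 libraries. The order of the 73 genes was nearly the same in both groups, with a Spearman rank correlation of 0.99 across genes, which share their libraries and transcript lengths.

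Many members share sequence with other genes. The median member shared 47.2% of its 75-base windows with transcripts of other genes, and 34 of the 80 shared over 50%. Rpl26 was listed at 0 counts in all 6 libraries, as was Rpl10l, a paralog known from testis. Rpl26 shares 57.52% of its windows with 5 pseudogenes, and Rpl10l shares 0.32%. The other windows of Rpl26 occur in no other transcript, and the annotation and counting rule behind its 0 are not known, so the 0 is not read as a level. Rps27 had 34, 61 and 31 counts in E14.5, against 35, 19 and 34 counts in adult cultures, with 98.52% of windows shared, also with the coding paralog Rps27rt. Rpl30, with 40.12% of windows shared, had 29, 35 and 20 counts in E14.5, against 27, 13 and 27 counts in adult cultures. Rpl34, with 41.38% shared, had 19, 22 and 19 counts in E14.5, against 10, 11 and 22 counts in adult cultures. Both shared less than the median member. The cause of their low counts was not tested, and these counts are not read as levels. Rps27, Rpl30 and Rpl34 gave no usable fold change, with SE of 0.39 to 0.41 on the log2 scale.

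Rpl39l, a paralog known from germ cells, had 3, 9 and 14 counts in E14.5, against 0, 1 and 4 counts in adult cultures, and was not tested. Rpl3l, a muscle paralog, had 1, 2 and 2 counts in E14.5 cultures and 0 in every adult library, with no fold given at so few counts.

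**Figure D4:**
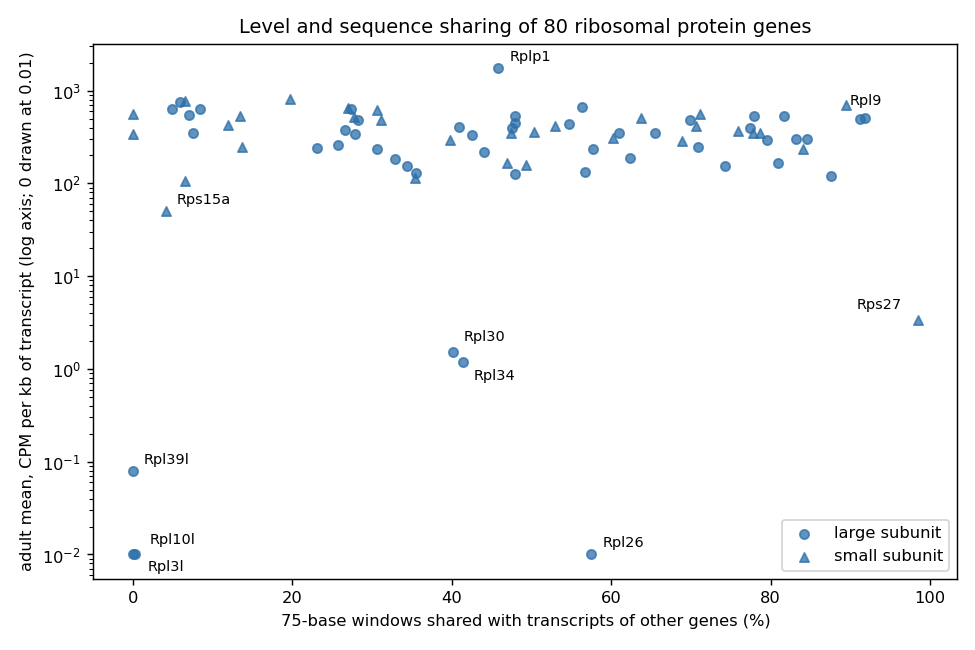
Mean adult level (CPM per kilobase of transcript, log axis, with 0 drawn at 0.01) against the percent of 75-base windows shared with transcripts of other genes, for all 80 members, with markers for the large and the small subunit. Most members lie above 50 CPM per kilobase at any degree of sharing, while Rps27, Rpl30, Rpl34, Rpl26 and the restricted paralogs lie far below.

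The fold change hardly followed these features. Across 73 members, its correlation with the percent of windows shared was -0.089 (Pearson r) and -0.132 (Spearman rank correlation). It was -0.067 and 0.106 with transcript length, 0.235 and 0.242 with GC content, and 0.228 and 0.228 with the log2 mean level. These are descriptions across genes of the same 6 libraries. The median log2 fold change was 0.35 for 10 members with at most 10% of windows shared, 0.32 for 31 members with 10% to 50%, and 0.31 for 32 members above 50%. Reads that map to several places took 9.01%, 9.19% and 9.37% of counted reads in E14.5, against 8.47%, 8.71% and 8.45% in adult cultures, and were in no gene row. Tested members with a pyrimidine run of at least 8 bases near the start had a median of 0.32. They ranged from 0.14 for Rps27l to 0.42 for Rps26, both shown above. Those with a shorter run had a median of 0.31, from 0.12 for Rpl39 to 0.45 for Rps3.

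Ribosomal proteins outside the symbol rule gave like values for core proteins. Gnb2l1, the gene of the 40S protein Rack1, had 1161, 975 and 1200 CPM in E14.5, against 811, 799 and 846 CPM in adult cultures. Its log2 fold change was 0.44 (SE 0.14, adjusted p = 0.164 in edgeR and 0.0077 in DESeq2). Fau encodes Rps30 fused to a ubiquitin-like protein and was named after its values were seen. It had a log2 fold change of 0.48 (SE 0.09, adjusted p = 0.080 in edgeR and 4.39e-06 in DESeq2). The paralogs gave smaller values. Rpl36al had a log2 fold change of 0.14 (SE 0.10), Rpl7l1 of 0.01 (SE 0.10) and Rpl22l1 of -0.10 (SE 0.23), none past the test. Rps4l and Rps27rt had no row.

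Other TOP mRNAs of the translation machinery had values near those of the ribosomal proteins. Their list and its summed level include Gnb2l1, the ribosomal protein gene described above, which DESeq2 called higher. Of 21 listed genes tested, 0 were called by edgeR and 4 were called higher by DESeq2, against 5.14% of all genes tested there. The log2 fold change was positive for 18, and the median was 0.27. All E14.5 libraries lay above all adult libraries for 16 of the 21, against 12.1% of all tested genes. Eef1a1, the elongation factor that brings tRNA to the ribosome, had 4559, 3861 and 5104 CPM in E14.5, against 3628, 3742 and 3810 CPM in adult cultures, with a log2 fold change of 0.27 (SE 0.17, adjusted p = 0.467, edgeR). Their summed level dipped in E14.5 replicate 2 as well, with 14475, 12950 and 15187 CPM in E14.5, against 11491, 11497 and 11686 CPM in adult cultures.

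The genes that build ribosomes had smaller values. Of 49 ribosome biogenesis factors, 0 were called by edgeR or DESeq2 and the median log2 fold change was 0.13. It was positive for 42 and negative for 7, against 51.5% positive over all tested genes. All E14.5 libraries lay above all adult libraries for 10 and below for 1, against 12.1% and 12% of all tested genes. The summed level of the biogenesis factors was highest in E14.5 replicate 2. It was 3497, 4154 and 3242 CPM in E14.5, against 3231, 3291 and 3336 CPM in adult cultures, and the groups overlapped. Ncl, which encodes nucleolin, had a log2 fold change of 0.12 (SE 0.14, adjusted p = 0.750, edgeR). The medians were 0.09 for 18 genes of RNA polymerase I and its factors, 0.14 for 14 chaperones and importers of ribosomal proteins, and -0.19 for 18 genes of S phase and mitosis, with 0 called by edgeR in each list. For the 76 mitochondrial ribosomal proteins, encoded by a separate set of genes, the median was 0.10, with 0 called by edgeR. Only 1 was called higher by DESeq2, against 5.14% of all genes tested there. The log2 fold change was positive for 61 of them and negative for 15. All E14.5 libraries lay above all adult libraries for 23 and below for 0.

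Among 22 regulators of mTORC1 signalling and TOP mRNA translation, 0 were called by edgeR. In DESeq2, 2 were called higher, against 5.14% of all genes tested there. Those 2, named after their values were seen, were the translation repressors Eif4ebp1, with a log2 fold change of 0.62 (SE 0.14, adjusted p = 0.101, edgeR), and Eif4ebp2, with 0.76 (SE 0.14, adjusted p = 0.074, edgeR). Mtor itself had a log2 fold change of -0.06 (SE 0.09) and Larp1 of 0.00 (SE 0.11), neither past the test. Over the 22 genes the median was 0.06 and the range -1.09 to 0.76, with 15 positive and 7 negative. All E14.5 libraries lay above all adult libraries for 3 and below for 1, against 12.1% and 12% of all tested genes.

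**Figure D5:**
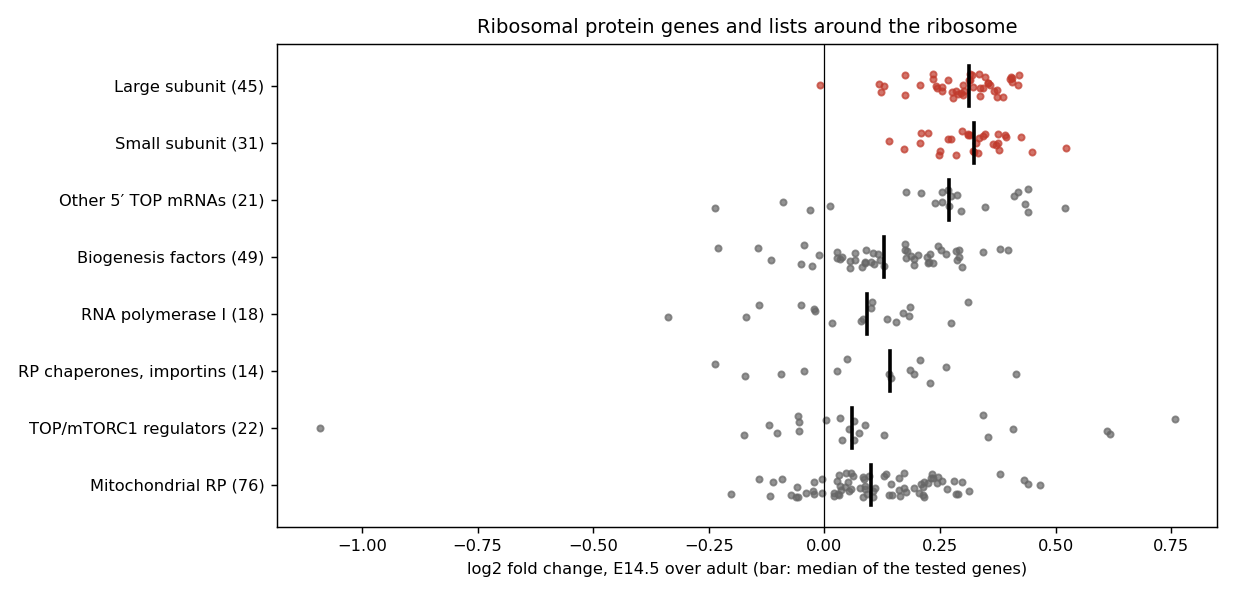
Log2 fold change of E14.5 over adult for every tested gene of the large subunit, the small subunit and the lists around the ribosome, 1 point per gene, with a bar at the median and the number of tested genes in brackets. Both subunits and the other TOP mRNAs centre near 0.3, and the biogenesis, RNA polymerase I and mitochondrial ribosome lists centre near 0.1.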

How the data were processed

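Per library, the authors deposited a table of raw counts by gene symbol, from stranded poly(A) libraries read over 75 bases from a single end, aligned with STAR to mm10 per the submitters' processing notes. The STAR version and the annotation were not given in the sources used here. Reverse-strand counts were used, and rows that name no gene, 17.45% to 19.81% of counted reads per library, were left out. Replicates were numbered in accession order.

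CPM were computed here from the deposited counts on TMM-scaled library sizes. With edgeR 4.0.16 (R 4.3.3), low genes were removed by filterByExpr, E14.5 was compared with adult by the robust quasi-likelihood test, and p-values were adjusted by Benjamini-Hochberg over 13478 genes with a threshold of 0.05. SE is the size of the log2 fold change divided by the square root of F, which is approximate. DESeq2 1.42.0, limma 3.58.1 (voom), other scalings and filters, unstranded counts, the title prefix as a block and leaving out each library were alternatives. Only the edgeR fit was tested on simulated counts, drawn for each gene independently, so without shifts that genes of a library share. Window sharing used GENCODE M21 transcripts.

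The members, the lists and the alternatives were chosen with earlier results of these data known. Named genes were the 4 highest and 4 lowest fold changes of each subunit, the 3 highest and 2 lowest mean counts, the 2 largest SDs, genes of fixed role, paralogs, and the most abundant or largest-changing genes of each list. Some genes that this rule took are not reported here.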

Additional observations from a re-analysis of the deposited data

How the results depend on the processing

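The median log2 fold change of the 76 tested members was positive under every setting tried, from 0.27 without the libraries of highest leukocyte and endothelial sums to 0.39 without both libraries of the prefix of E14.5 replicate 2, and lay between 0.26 and 0.37 for the large and between 0.28 and 0.41 for the small subunit when each library was left out. Members called higher stayed at 0 in edgeR under all scalings, filters and omissions and in limma-voom, whereas DESeq2 called 15 of the large and 7 of the small subunit. The cause of that difference between tools was not tested. Over all genes, the count of calls was 146, but with E14.5 replicate 1 left out it was 3, with E14.5 replicate 2 left out 471, with adult replicate 1 left out 38, with adult replicate 2 left out 46, with adult replicate 3 left out 3, and in DESeq2 1427, so the threshold a member had to meet moved with single libraries. Deviations from group means had correlations of -0.14, -0.23 and -0.09 between libraries of the same prefix, and the prefix was not taken as a pairing. With 3 libraries per group, such correlations cannot show that the prefix marks no pairing. With the title prefix as a replicate block, the members' median was 0.31, 19 rather than 45 members had an unadjusted p under 0.05, 0 members were called, and 2 genes were called over the whole table.

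Signs turned for genes near 0 or with few counts, and the cause was not tested. Rpl30 had a log2 fold change of 0.027 with upper-quartile scaling, 0.040 with library size alone and 0.011 without the libraries of highest leukocyte and endothelial sums, where Rpl39 had -0.18 and Kpnb1, an importin, 0.072. Without both libraries of the prefix of E14.5 replicate 2, it was -0.37 for Rpl30, -0.019 for Rps27l, -0.32 for Rps27, 0.16 for Rpl22l1, -0.088 for Cnbp, 0.91 for Top2a and -0.051 for Mrpl33. When each library was left out, the log2 fold change ranged from -0.20 to 0.19 for Rpl30, -0.095 to 0.43 for Rpl34, -0.060 to 0.36 for Rpl39, -0.19 to 0.35 for Rps27, -0.059 to 0.061 for Rpl7l1, -0.35 to 0.097 for Rpl22l1, -0.089 to 0.14 for Cnbp, -0.15 to 0.066 for Kpnb1, -0.096 to 0.10 for Mrpl33, -0.014 to 0.18 for Rrn3, 0.045 to 0.29 for Rps27l and -1.12 to 0.48 for Top2a. Rpl30, Rpl34 and Rps27 and the 4 untested members had too few counts for a usable fold change, and adult replicate 2, with 18850224 gene counts, was the shallowest library.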
